A study of Mus musculus with 6 samples.

Results

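Interferon response and class I antigen presentation genes were measured by RNA-Seq in osteal macrophages, which sit on the surfaces of bone, from ovariectomized (OVX) and sham-operated mice. Members were chosen by gene symbol alone: symbols that begin with H2-, Ifitm, Ifnar or Ifngr, with Ifi followed by a digit or t, with Oas, with Stat or Gbp followed by a digit, with Irf or Jak and 1 digit, and also B2m, Tap1, Tap2, Tapbp, Isg15, Bst2 and Nlrc5. The rule found 53 of the 11815 genes in the deposited table, and the rule itself uses no measured value. The 6 libraries were 3 of OVX cells and 3 of sham cells. OVX mice were female BALB/c mice that had both ovaries removed at 10 weeks of age, and sham mice were female BALB/c mice of the same age that had surgery without removal. Cells of both groups were taken from femurs and vertebrae 4 weeks after surgery and sorted for CD11b with F4/80 or CD68. The study's methods give 20 mice per condition, and the division of these mice over the 3 libraries of a group is not stated in the sources used here. The labels do not state whether the replicates are separate animals, so the p-values describe the spread among these libraries, which could be technical.

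Type I interferons bind the Ifnar1 and Ifnar2 receptor chains and interferon gamma binds Ifngr1 and Ifngr2. Both receptors signal through Janus kinases to STAT factors, which with IRF factors bind the interferon-stimulated response element (ISRE) or the gamma-activated site (GAS) in front of induced genes. Among the induced genes are those of class I presentation, in which a heavy chain such as H2-K1 or H2-D1 pairs with the light chain B2m and takes up peptides that the Tap1 and Tap2 transporter and tapasin (Tapbp) deliver, for display to CD8 T cells. Macrophages both answer interferon and present antigen, and they also carry class II genes.

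Levels are given in scaled TPM. TPM is a length-corrected share of the transcripts of a library. It was summed over the listed transcripts of a gene and divided by 1 scaling factor per library. Levels of different genes can be set beside each other only as far as their transcripts were listed. Library values are listed by replicate number. Each gene whose mean reached 1 scaled TPM was tested with limma on log2(scaled TPM + 1), on which scale all log2 fold changes (OVX over sham, ± SE) are given and on which the change of a low gene is understated. A gene was called when its p-value, adjusted by the Benjamini-Hochberg method over all 8184 genes tested, was below 0.05. TPM keep no read counts, so the depth behind a value is unknown here, and a 0 can be a failed estimate.

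The table lists part of the family. Of 116 protein-coding symbols in the GENCODE M21 annotation that match the rule, 50 were listed, beside the pseudogenes H2-K2 and H2-T-ps and Ifi30, which that annotation marks as a processed transcript, and 97 of the 273 annotated transcripts of the 53 members were listed, so a gene's level can miss part of its RNA. All 3 Jak genes and 6 of 7 Stat genes were listed, with 4 of 9 Irf genes, 4 of 7 Ifitm genes, 14 of 34 H2 genes, 7 of 24 Ifi and Ifit genes, 2 of 10 Gbp genes and 0 of 11 Oas genes. Irf7, Irf8 and Nlrc5, the class I transactivator, were not analysed here. The mean level reached 1 scaled TPM in 38 members, the lowest of them at 1.07, and stayed at 0.756 or below in the other 15, of which 12 stood at 0 in at least 1 library.

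Of the sort marker genes Itgam and Cd68 reached the level for testing and Adgre1 did not, and OVX replicate 3 stood apart from the other libraries. Itgam, which codes for CD11b, lay at 18.5 to 28.2 scaled TPM in OVX libraries and 10.8 to 13.6 in sham libraries, Cd68 lay at 36.3 to 43.1 in OVX and 32.4 to 37.9 in sham libraries, and the F4/80 gene Adgre1 lay at 0.467 to 1.05 in OVX and 0.640 to 1.16 in sham libraries. Of 14 macrophage markers 10 were listed, with a sum of 1571 to 2058 in OVX and 1536 to 1606 in sham libraries, most of it Cd14, Lgals3 and Lyz2. Of the 7 tested 6 had a log2 fold change above 0 and 1, Vcam1, below. Itgam, Fcgr3 and Lgals3 were higher in all OVX libraries, beside 7.42% of all genes, and Vcam1 was lower in all, beside 7.8%. The colony-stimulating factor receptor gene Csf1r was at 0 in all 6 libraries. The 8 listed of 12 neutrophil markers summed to 131991 to 141590 in OVX and 69673 to 89312 in sham libraries, nearly all of it S100a8 and S100a9. Of these markers 7 were tested, and 7 had a log2 fold change above 0. S100a8, S100a9, Ngp and Mmp8 were higher in all OVX libraries, beside 7.42% of all genes, while Ltf, Lcn2 and Elane overlapped between the groups. The 8 stromal markers summed to 9602 to 13694 in OVX and 13972 to 14803 in sham libraries, nearly all of it Dcn, and of the 7 tested 3 had a log2 fold change above 0 and 4 below. The 6 skeletal muscle markers summed to 126 to 155 in OVX and 195 to 205 in sham libraries, with 5 of 5 tested below 0. The 7 chondrocyte markers summed to 753 to 1190 in OVX and 1213 to 1382 in sham libraries. Comp and Chad were lower in all OVX libraries, beside 7.8% of all genes, and Col2a1, Col9a1 and Col10a1 were higher in all, beside 7.42% of all genes. No gene of these lists was called. The part of these markers in the member differences was not tested, and in bulk RNA fewer cells of a type and less RNA per cell cannot be told apart. In OVX replicate 3 the listed transcripts held 66.3% of the TPM of a full library, against 81.2% and 83.0% in the other OVX libraries and 80.5% to 82.7% in sham libraries.

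Interferon motif letters stood in the promoter windows of a minority of members, and these windows reach into the gene. Gene starts here follow RefSeq, and the Gbp2 stretch shown spans the GENCODE start of that gene. The marked letters of Gbp2 lie before the RefSeq start but just inside the gene by the GENCODE start. In RefSeq promoters of the mouse build GRCm38.p6, taken as 250 bases before to 50 bases after a gene's start and found for 47 of the 53 members, the ISRE letters (GAAA, any 2 bases, GAAA) occurred on either strand in 13 members (27.7%), against 3.99% of all 27025 promoters of this length. The GAS letters (TTC, any 3 bases, GAA), also read on both strands, occurred in 11 members (23.4%), against 9.55% of all promoters. A stretch of 60 bases from 4 of these promoters is shown because the genes stand for 4 outcomes described further on: a widely spread ubiquitin-like gene (Isg15), a gene lower in all OVX libraries (Gbp2), a level gene (B2m) and an IRF gene whose lower mean rested on 1 library (Irf1). Capitals mark the motif letters, with 3 overlapping ISRE matches in Isg15, 1 in Gbp2 and in B2m, and 1 GAS match in Irf1. The windows lie at chr4:156200856-156200915 (minus strand), chr3:142620579-142620638, chr2:122147523-122147582 and chr11:53769898-53769957 (plus strand), and a match of letters is a description of the sequence and not a bound site.
Isg15: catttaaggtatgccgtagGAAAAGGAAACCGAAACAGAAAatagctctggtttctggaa
Gbp2: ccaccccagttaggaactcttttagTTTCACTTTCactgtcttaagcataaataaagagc
B2m: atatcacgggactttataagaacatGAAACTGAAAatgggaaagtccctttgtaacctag
Irf1: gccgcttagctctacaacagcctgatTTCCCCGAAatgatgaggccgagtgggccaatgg

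No member passed the test between OVX and sham cells. Of the 38 tested members 0 were called higher and 0 lower by limma with Benjamini-Hochberg adjustment, where over all 8184 genes 0.0122% were called higher and 0% lower. An unadjusted p below 0.05 was reached by 1 member with a higher level, Ifitm1, and by 2 with a lower level, Ifngr2 and Gbp2, beside 3.46% of all genes in the higher and 3.42% in the lower direction. Libraries of the groups did not overlap in 9 members. All 3 OVX libraries lay below all 3 sham libraries in 8 of them (21.1%, beside 7.8% of all genes): Ifngr2, Gbp2, Tapbp, Tap2, H2-K1, H2-Q6, H2-Q7 and Ifitm3. They lay above them in 1 (2.63%, beside 7.42% of all genes), Ifitm1, which did not separate the groups on the TPM as deposited.

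The fold changes of the members leaned downwards and much of that lean rested on 1 library. Of 38 members 28 (73.7%) had a log2 fold change below 0, with a median of -0.21, beside 51.6% and a median of -0.01 over all genes. Set against the sham mean, the member median was -0.05 in OVX replicate 1, -0.02 in OVX replicate 2 and -0.55 in OVX replicate 3. OVX replicate 3 was the lowest of the 6 libraries in 22 members (57.9%), beside 33.9% of all genes. Without OVX replicate 3 the median was -0.02, beside -0.01 over all genes, and 20 of the 38 members (52.6%) lay below 0, beside 51% of all genes. The members with an unadjusted p below 0.05 were then 1 higher and 4 lower, beside 4.61% and 4.76% of all genes, and 0 were called, beside 0.0847% of all genes called higher and 0.0363% lower. Groups did not overlap for 8 lower and 3 higher members without this library, beside 13% and 13.3% of all genes. On the TPM as deposited, where the median of all genes was -0.15, the member median was -0.35 and 31 members lay below 0 (81.6%, beside 69.9% of all genes). On that scale 5 lower and 0 higher members had an unadjusted p below 0.05, beside 6.05% and 1.55% of all genes, and 8 lower and 0 higher members did not overlap between groups, beside 13.1% and 3.57%.

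**Figure D1:**
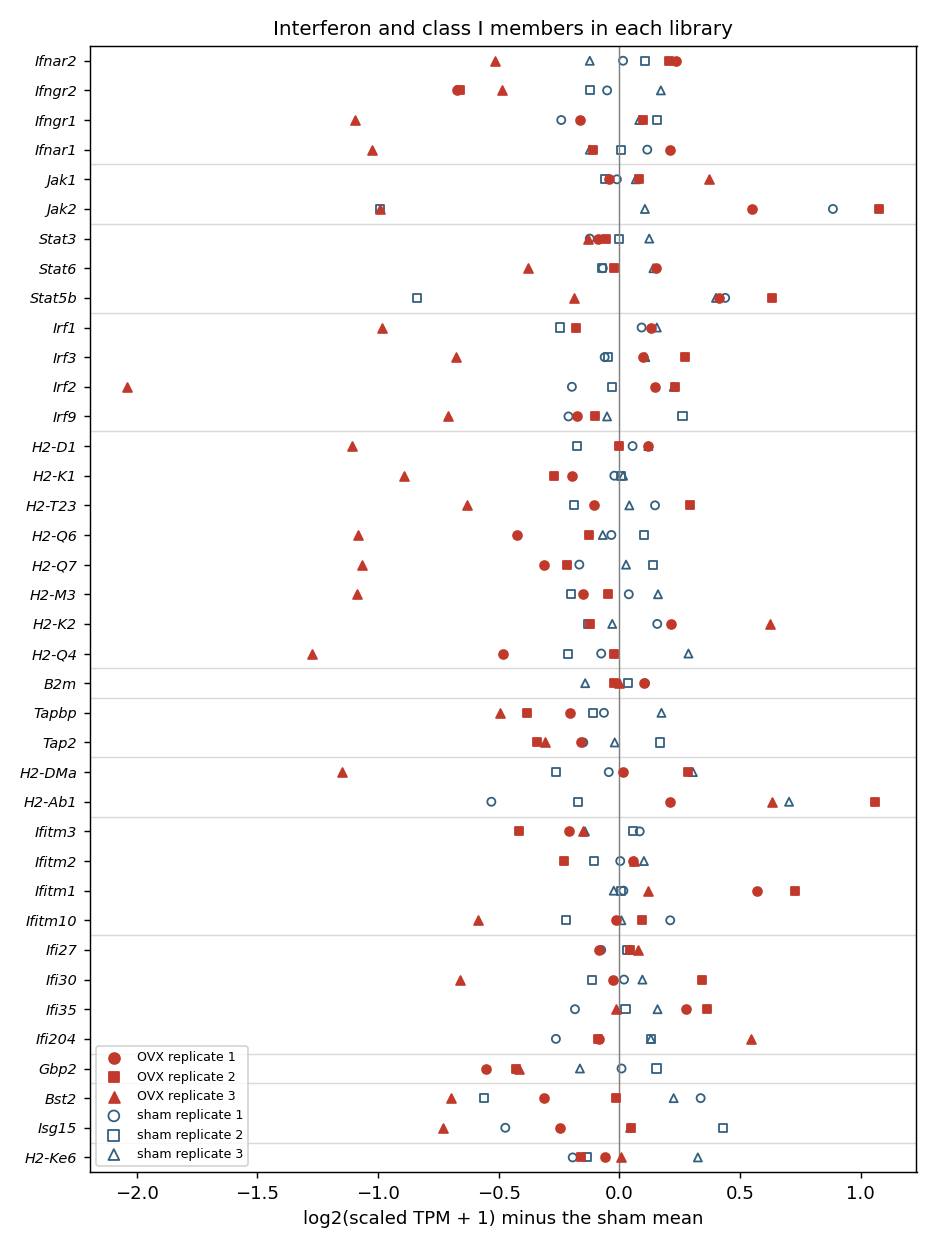
Level of each tested member in each library as log2(scaled TPM + 1) minus the sham mean, grouped by role from receptor chains at the top to H2-Ke6 at the bottom; filled red markers are OVX and open blue markers sham libraries, with circle, square and triangle for replicates 1, 2 and 3. OVX replicate 3 (red triangle) is the lowest library in 22 of 38 members, while the 3 OVX libraries of Ifngr2 and Gbp2 lie together below the sham libraries.

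Among the receptor chains Ifngr2 stood apart. Ifngr2, the chain that brings Janus kinase 2 to the interferon gamma receptor (chromosome 16, 91547072 to 91565623, plus strand, GRCm38), had 10.2, 10.3 and 11.8 scaled TPM in the OVX libraries, against 16.3, 15.5 and 19.2 in the sham libraries. The groups did not overlap, with a mean of 10.8 ± 0.876 in OVX and 17.0 ± 1.95 in sham libraries (SD, n = 3 each). Its log2 fold change of -0.61 ± 0.15 had the smallest p of all members and was not called (limma, adjusted p = 0.521), and it was -0.67 without OVX replicate 3.

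That difference lay in 1 of the 2 listed Ifngr2 transcripts. The protein-coding transcript (ENSMUST00000023687) had 8.34, 10.3 and 8.57 scaled TPM in the OVX libraries, against 9.21, 9.50 and 9.51 in the sham libraries, and these ranges overlapped. The transcript annotated as a target of nonsense-mediated decay (ENSMUST00000127644), a class of RNA with an early stop codon, had 1.89, 0 and 3.23 scaled TPM in the OVX libraries, against 7.09, 5.97 and 9.68 in the sham libraries. Fitted one by one among 11907 transcripts, the decay transcript had a log2 fold change of -1.87 ± 0.54 (limma, adjusted p = 0.780) and the coding transcript -0.05. With only protein-coding transcripts summed, the fold change of the gene was -0.04 on the log2 scale (limma, adjusted p = 0.935), so the lower gene level was not seen in its coding RNA. How reads were shared between transcripts of a gene is not given in the sources read here.

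The other receptor chains overlapped between the groups. Ifngr1, the chain that binds interferon gamma, had 8.47, 10.3 and 3.96 scaled TPM in OVX libraries, against 7.97, 10.8 and 10.2 in sham libraries. Ifnar1 had 9.04, 7.03 and 3.26 scaled TPM in OVX libraries, against 8.39, 7.71 and 6.96 in sham libraries. Ifnar2, the most abundant receptor chain, had 60.03, 58.9 and 35.3 scaled TPM in OVX libraries, against 51.4, 54.8 and 46.6 in sham libraries. Each of these chains was lowest in OVX replicate 3. Their log2 fold changes were -0.39 ± 0.31, -0.31 ± 0.31 and -0.02 ± 0.22 with it and -0.03, 0.05 and 0.22 without it, in the order Ifngr1, Ifnar1, Ifnar2.

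Kinases and STAT factors of the pathway ranged from 0 in some libraries to moderate levels, with no call. Tyk2, a kinase gene of interferon signalling outside the rule, had 0.551 scaled TPM in OVX replicate 1 and 0 in every other library, and was not tested. Jak1, the kinase common to both interferon receptors, had 12.3, 13.5 and 16.7 scaled TPM in OVX libraries, against 12.6, 12.1 and 13.3 in sham libraries (log2 fold change 0.14 ± 0.16). Jak2 was listed at 0 in OVX replicate 3 and sham replicate 2, with 1.91 and 3.19 in the other OVX libraries and 2.67 and 1.14 in the other sham libraries. Stat3, which mainly serves cytokines of the IL-6 family, had 8.59, 8.83 and 8.32 scaled TPM in OVX libraries, against 8.37, 9.19 and 10.1 in sham libraries, and Stat6, which answers IL-4, had 8.43, 7.37 and 5.53 in OVX and 7.10, 7.07 and 8.36 in sham libraries. Stat2, a STAT factor of type I interferon signalling, lay below the level for testing, with 0.992, 0.487 and 0.796 scaled TPM in OVX libraries, against 0.9003, 0.453 and 0.885 in sham libraries. Its groups overlapped. Stat5b had a log2 fold change of 0.29 ± 0.39, and Stat5a and Jak3, with 0 in at least 1 library each, were not tested.

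The 4 listed IRF factors all had a log2 fold change below 0 and were all lowest in OVX replicate 3. Irf1, which interferon gamma induces and which acts on class I genes, had 10.4, 8.20 and 4.27 scaled TPM in OVX libraries, against 10.1, 7.77 and 10.6 in sham libraries. Irf3, which turns on interferon genes after nucleic acid sensing, had 8.65, 9.87 and 4.64 scaled TPM in OVX libraries, against 7.64, 7.73 and 8.71 in sham libraries. Irf9, a DNA-binding subunit of the complex that binds the ISRE, had 1.56, 1.70 and 0.773 scaled TPM in OVX libraries, against 1.504, 2.47 and 1.80 in sham libraries. The other OVX libraries of these genes overlapped with the sham libraries. Irf2, an antagonist of Irf1, was listed at 0 in OVX replicate 3, with 3.55 and 3.83 in the other OVX libraries and 2.59, 3.03 and 3.81 in sham libraries. The log2 fold change of Irf2 was -0.55 ± 0.58 with OVX replicate 3 and 0.19 without it, that of Irf3 was -0.10 ± 0.26 with it and 0.18 without it, that of Irf1 was -0.34 ± 0.30 with it and -0.02 without it, and that of Irf9 was -0.33 ± 0.23 with it and -0.14 without it.

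Of the classical class I genes, H2-K1 was lower in all OVX libraries, H2-D1 overlapped between the groups and the light chain B2m was level, and none of them passed the test. H2-K1 (chromosome 17, 33996017 to 34000347, minus strand), a classical heavy chain, had 221, 209.9 and 136 scaled TPM in OVX libraries, against 249.8, 254 and 256 in sham libraries. Its groups did not overlap, the sham libraries lay close together, and its log2 fold change was -0.45 ± 0.20 (limma, adjusted p = 0.706) with all libraries and -0.23 without OVX replicate 3. H2-D1, the other classical heavy chain of the table (chromosome 17, 35262730 to 35267499, plus strand), had 443, 407 and 188 scaled TPM in OVX libraries, against 423, 360.4 and 443 in sham libraries. Only OVX replicate 3 lay below the sham range of H2-D1, and the log2 fold change was -0.33 ± 0.32 with it and 0.06 without it. B2m, which pairs with every class I heavy chain, had 801, 734 and 744 scaled TPM in OVX libraries, against 802, 764 and 675 in sham libraries (log2 fold change 0.03 ± 0.13). The ratio of H2-K1 to B2m within a library was 0.276, 0.286 and 0.183 in OVX libraries, against 0.311, 0.333 and 0.379 in sham libraries. These ratios did not overlap, but with B2m level they repeat the H2-K1 values and are no separate observation. The H2-K1 level in them came mainly from a retained-intron transcript, described next. The ratio of H2-D1 to B2m was 0.553, 0.555 and 0.253 in OVX libraries, against 0.527, 0.472 and 0.655 in sham libraries, and overlapped.

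The H2-K1 level came mainly from a transcript with a retained intron (ENSMUST00000238021), 1 of 9 listed of 16 annotated. It held 90.2% of the H2-K1 level, with 195, 185 and 125 scaled TPM in OVX libraries, against 229, 231 and 232 in sham libraries. Its log2 fold change fitted alone was -0.48 ± 0.19 (limma, adjusted p = 0.835). The 4 listed protein-coding transcripts of H2-K1 summed to 15.4, 19.9 and 6.36 scaled TPM in OVX libraries, against 17.97, 15.3 and 18.2 in sham libraries, and these ranges overlapped. In H2-D1 the low value of OVX replicate 3 lay in 1 of 2 protein-coding transcripts: ENSMUST00000172785 had 377, 337 and 122 scaled TPM in OVX libraries, against 342, 299.8 and 371 in sham libraries. The other, ENSMUST00000172503, had 65.1, 70.4 and 65.6 in OVX libraries, against 80.4, 60.5 and 71.2 in sham libraries.

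**Figure D2:**
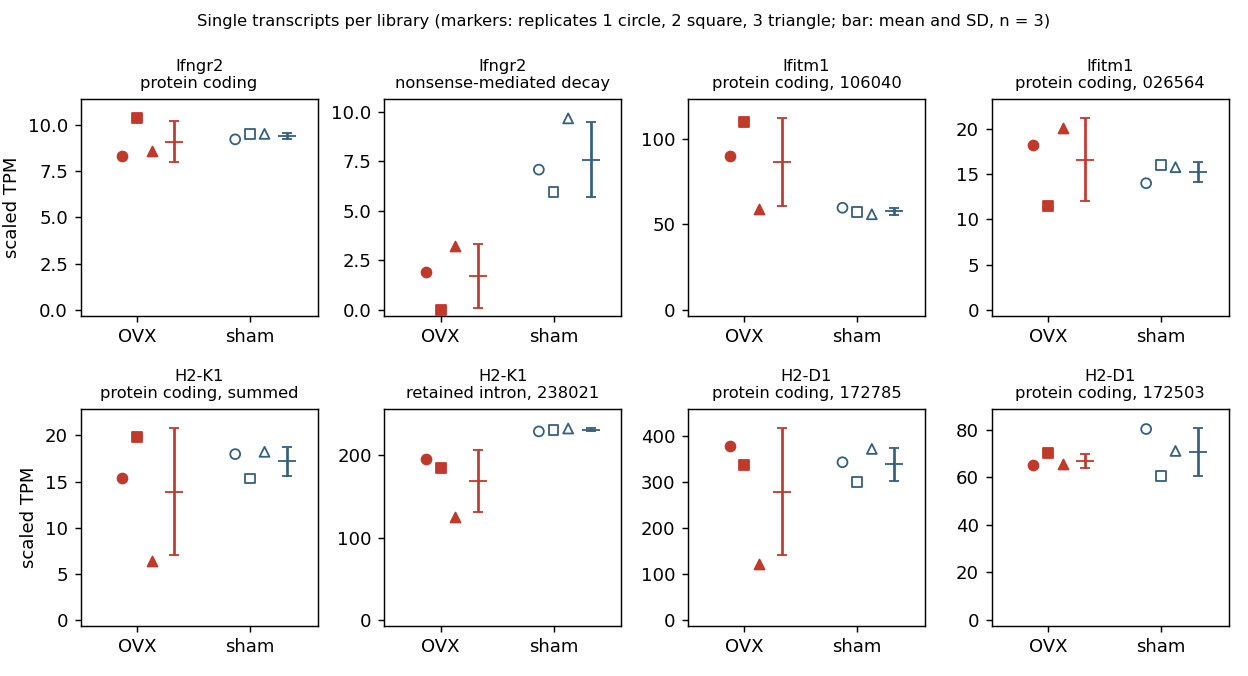
Scaled TPM of single transcripts of Ifngr2, Ifitm1, H2-K1 and H2-D1 in each library (red filled OVX, blue open sham; bars are mean and SD of 3 libraries), with the 4 protein-coding transcripts of H2-K1 summed. The Ifngr2 decay transcript has 0 to 3.23 in OVX against 5.97 to 9.68 in sham libraries while the coding transcript overlaps between groups, and the low OVX replicate 3 of H2-D1 appears in ENSMUST00000172785.

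Nonclassical heavy chains were less abundant, and all tested ones other than H2-K2 were lowest in OVX replicate 3. H2-Q6 had 6.41, 8.09 and 3.69 scaled TPM in OVX libraries, against 8.71, 9.66 and 8.47 in sham libraries, and H2-Q7, whose protein is a Qa-2 antigen, had 6.90, 7.44 and 3.69 in OVX and 7.74, 9.79 and 8.995 in sham libraries. Both were lower in all OVX libraries, with log2 fold changes of -0.54 ± 0.25 and -0.53 ± 0.25 (limma, adjusted p = 0.709 and 0.713) that were -0.28 and -0.27 without OVX replicate 3. These genes are near-identical copies that can trade reads, so they are not 2 separate observations. H2-M3, which presents N-formyl peptides, had 6.52, 7.09 and 2.94 scaled TPM in OVX libraries, against 7.59, 6.28 and 8.34 in sham libraries. H2-T23, the Qa-1 gene, had 12.4, 16.7 and 8.32 scaled TPM in OVX libraries, against 15.0, 11.7 and 13.9 in sham libraries, and overlapped between groups. H2-Q4 and the pseudogene H2-K2 had means of 0.704 and 1.42 in OVX libraries and 1.44 and 1.01 in sham libraries, and H2-Q10, H2-T22 and the pseudogene H2-T-ps were not tested. Summed over the 11 listed heavy chain genes, both pseudogenes included, levels were 699.98, 660 and 347 scaled TPM in OVX libraries, against 717, 655 and 743 in sham libraries. The OVX to sham ratio of the means was 0.807 with all libraries and 0.964 without OVX replicate 3. BALB/c mice carry the d haplotype of H2 and the genome used is that of C57BL/6 mice with the b haplotype, and the effect of this on the class I levels was not tested.

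Tapbp and Tap2 were lower in all OVX libraries, with and without OVX replicate 3, and did not pass the test. Tapbp (chromosome 17, 33915899 to 33929292, plus strand), whose product tapasin holds the heavy chain at the transporter, had 13.3, 11.7 and 10.7 scaled TPM in OVX libraries, against 14.8, 14.3 and 17.6 in sham libraries. Tap2, a chain of the peptide transporter, had 2.98, 2.49 and 2.58 scaled TPM in OVX libraries, against 2.998, 3.98 and 3.38 in sham libraries. The groups did not overlap in either gene, although Tap2 in OVX replicate 1 and in sham replicate 1 lay close together. Their log2 fold changes were -0.36 ± 0.16 for Tapbp (limma, adjusted p = 0.706) and -0.27 ± 0.17 for Tap2, and -0.30 and -0.25 without OVX replicate 3. A retained-intron transcript held 88.6% of the Tap2 level, while 89.1% of the Tapbp level came from a protein-coding transcript. The listed coding transcript of Tap2 (ENSMUST00000025197) had 0.771, 0.676 and 0 scaled TPM in OVX libraries, against 0.134, 0.161 and 0.351 in sham libraries, so the lower Tap2 level was that of the retained-intron transcript. Tap1, the partner of Tap2, lay below the level for testing with 0.741, 0 and 0 scaled TPM in OVX libraries, against 0.6705, 0.925 and 1.67 in sham libraries. The 3 genes summed to 17.0, 14.1 and 13.3 scaled TPM in OVX libraries, against 18.4, 19.2 and 22.7 in sham libraries, an OVX to sham ratio of the means of 0.737 with OVX replicate 3 and 0.775 without it.

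**Figure D3:**
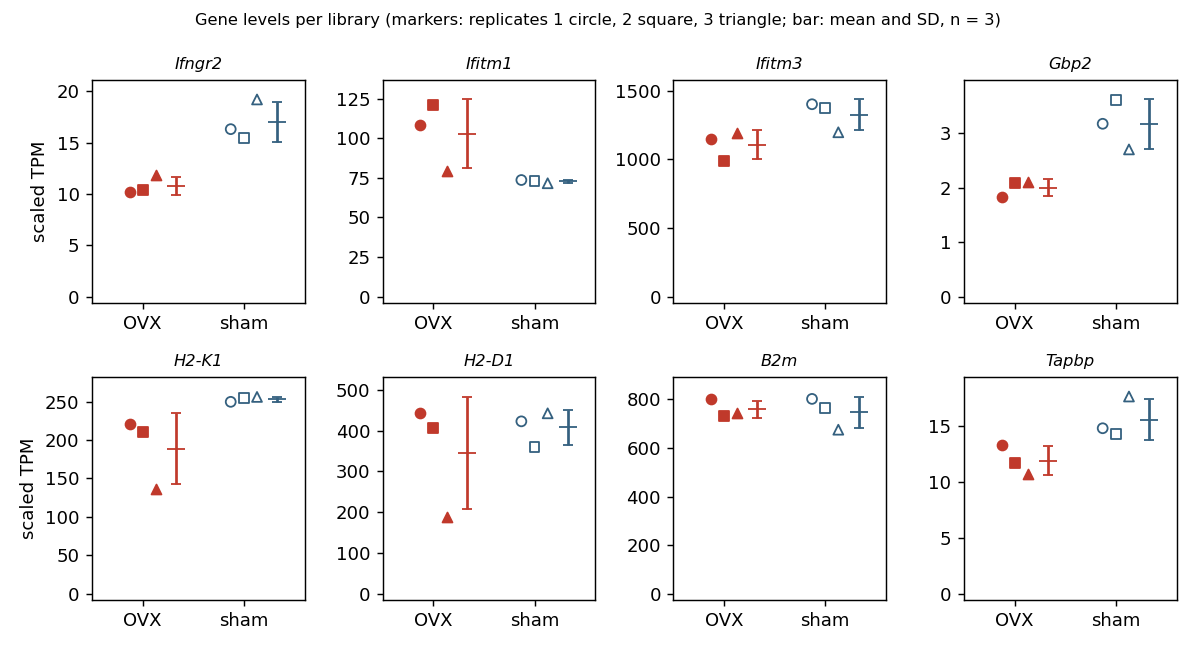
Scaled TPM of Ifngr2, Ifitm1, Ifitm3, Gbp2, H2-K1, H2-D1, B2m and Tapbp in each library (red filled OVX, blue open sham; bars are mean and SD of 3 libraries). Ifngr2, Ifitm3, Gbp2, H2-K1 and Tapbp are lower in all 3 OVX libraries, Ifitm1 is higher in all 3 (not on TPM as deposited), and H2-D1 and B2m overlap between the groups.

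Class II genes were few and varied within groups. H2-Ab1, a class II beta chain, had 3.96, 7.91 and 5.63 scaled TPM in OVX libraries, against 1.96, 2.80 and 5.97 in sham libraries (log2 fold change 0.63 ± 0.36; limma, adjusted p = 0.734). H2-DMa, which helps load class II molecules, had 6.01, 7.46 and 2.13 scaled TPM in OVX libraries, against 5.73, 4.79 and 7.57 in sham libraries. Both genes overlapped between groups, and H2-DMb1 and H2-DMb2 were not tested. H2-Ke6, which takes its name from its place in the H2 region and codes for a 17-beta-hydroxysteroid dehydrogenase, had 13.3, 12.4 and 14.0 scaled TPM in OVX libraries, against 12.1, 12.6 and 17.7 in sham libraries. Its main transcripts leaned in opposite directions, with log2 fold changes of -1.51 (ENSMUST00000045467; limma, adjusted p = 0.835) and 0.64 (ENSMUST00000236627), and the gene level was -0.07 ± 0.18.

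The Ifitm genes, which code for membrane proteins that block virus entry, held the most abundant member and, on scaled TPM, the 1 member with a higher level in all OVX libraries. Ifitm3 had 1145, 991 and 1189 scaled TPM in OVX libraries, against 1401, 1376 and 1197 in sham libraries. OVX replicate 3 and sham replicate 3 lay close together in Ifitm3, so the separation of the groups (log2 fold change -0.26 ± 0.14; limma, adjusted p = 0.728) was narrow. Ifitm1 (chromosome 7, 140967221 to 140969825, plus strand) had 108, 121 and 79.0 scaled TPM in OVX libraries, against 73.6, 73.0 and 71.5 in sham libraries. Its mean was 103 ± 21.6 in OVX and 72.7 ± 1.06 in sham libraries (SD, n = 3 each), with a log2 fold change of 0.47 ± 0.18 (limma, adjusted p = 0.693). Here OVX replicate 3 lay nearest to the sham libraries, and leaving it out gave a log2 fold change of 0.65 (limma, adjusted p = 0.0909). On the TPM as deposited the log2 fold change was 0.31 (limma, adjusted p = 0.673), and OVX replicate 3 did not lie above the sham libraries.

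Of the 2 listed Ifitm1 transcripts, both protein coding, ENSMUST00000106040 had 90.1, 109.6 and 58.9 scaled TPM in OVX libraries, against 59.6, 57.0 and 55.8 in sham libraries. The other, ENSMUST00000026564, had 18.2, 11.5 and 20.1 scaled TPM in OVX libraries, against 14.0, 16.0 and 15.7 in sham libraries. The higher Ifitm1 level therefore stood in the more abundant transcript, in OVX replicates 1 and 2, and OVX replicate 3 lay within the sham range there. Ifitm2 had 531, 435 and 532 scaled TPM in OVX libraries, against 511, 474 and 547 in sham libraries, and Ifitm10 had 6.84, 7.47 and 4.28 in OVX and 8.17, 5.80 and 6.97 in sham libraries. Neither separated the groups.

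Gbp2, an interferon-inducible guanylate-binding GTPase that acts against intracellular microbes (chromosome 3, 142620602 to 142638008, plus strand), was low in all libraries, lower in all OVX libraries and not called. It had 1.82, 2.08 and 2.10 scaled TPM in OVX libraries, against 3.17, 3.61 and 2.70 in sham libraries. With a mean of 2.002 ± 0.155 in OVX and 3.16 ± 0.456 in sham libraries (SD, n = 3 each), the groups did not overlap. The log2 fold change was -0.47 ± 0.17 (limma, adjusted p = 0.693), and -0.50 without OVX replicate 3. Its single listed transcript was protein coding. Gbp7 stayed at 0.473 scaled TPM or below in every library and was not tested.

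The remaining induced genes did not separate the groups. Ifi27, a mitochondrial protein gene often used as a mark of type I interferon, was level with 98.0, 107 and 109.9 scaled TPM in OVX libraries, against 98.7, 106 and 107 in sham libraries (log2 fold change 0.01 ± 0.13). Ifi30, a lysosomal thiol reductase of antigen processing, had 33.5, 43.7 and 21.3 scaled TPM in OVX libraries, against 34.7, 31.5 and 36.6 in sham libraries, and Ifi35 had 12.8, 13.7 and 10.3 in OVX and 9.07, 10.6 and 11.8 in sham libraries. Isg15, a ubiquitin-like protein gene, had 6.36, 8.04 and 4.27 scaled TPM in OVX libraries, against 5.30, 10.8 and 8.01 in sham libraries. Bst2, or tetherin, which holds budding viruses at the cell surface, had 6.64, 8.40 and 4.85 scaled TPM in OVX libraries, against 10.98, 5.42 and 10.1 in sham libraries. Isg15 and Bst2 both spread widely among the sham libraries, with log2 fold changes of -0.31 ± 0.29 and -0.34 ± 0.29. Ifi204, a DNA sensor gene, had a log2 fold change of 0.12 ± 0.24. Ifit2, Ifit3, Ifi44 and Ifi211 lay at or below 1.07 scaled TPM in every library and were not tested. With protein-coding transcripts alone the Ifi27 log2 fold change was -0.21 (limma, adjusted p = 0.774).

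**Figure D4:**
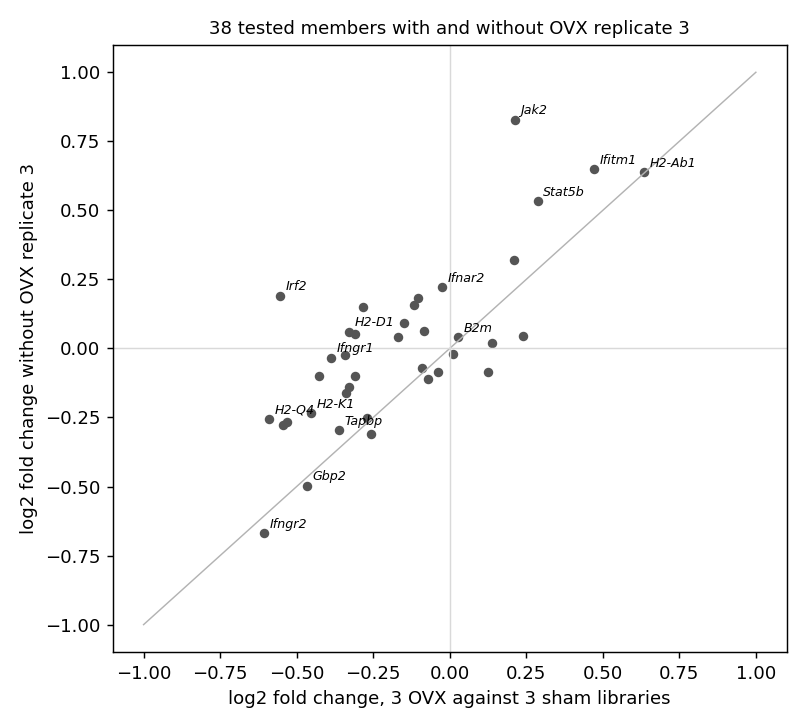
Log2 fold change of the 38 tested members with all libraries (horizontal axis) and without OVX replicate 3 (vertical axis); each point is a gene, 14 are named and the diagonal marks equal values. Ifngr2 and Gbp2 stay near -0.6 and -0.5 on both axes, while Irf2, H2-D1 and most members left of 0 move up towards or past 0 without that library.

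Fitted one by one, no member transcript passed the test. Of 57 member transcripts tested, 0 were called by limma, and 4 had an unadjusted p below 0.05, all lower (7.02%, beside 2.85% of all transcripts lower and 2.75% higher): those of Ifngr2, H2-K1, H2-Ke6 and Gbp2 named above. OVX and sham libraries did not overlap in 9 transcripts, all lower (15.8%, beside 6.8% of all transcripts lower and 6.58% higher), and 38 (66.7%) had a log2 fold change below 0, beside 51.8% of all transcripts. When only protein-coding transcripts were summed, 34 members were tested with a median log2 fold change of -0.18 and 0 called, 4 were lower (11.8%, beside 7.96% of all genes) and 1 was higher (beside 7.43%) in all OVX libraries, and an unadjusted p below 0.05 was reached by 3 lower members and 1 higher, beside 3.63% and 3.5% of all genes. Of the 4 genes with an unadjusted p below 0.05 there, Gbp2 (-0.46) and Ifitm1 (0.48) were common to both fits, and Tapbp (-0.35) and H2-Q7 (-0.55) took the place of Ifngr2. The listed coding transcripts of H2-Q7 differed when fitted alone, with log2 fold changes of 0.03 (ENSMUST00000071951) and -1.21 (ENSMUST00000116598; limma, adjusted p = 0.835).

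Other genes of the pathway, taken as lists, held no call either. Of 46 other interferon-stimulated genes 24 were listed and 13 tested, with 0 called by limma, 2 with an unadjusted p below 0.05, both higher (beside 3.46% of all genes higher), and a median log2 fold change of -0.10. With OVX replicate 3 left out that median became 0.0955. Slfn2, a Schlafen gene of the immune cell lineage, had 53.9, 55.8 and 65.1 scaled TPM in OVX libraries, against 39.3, 40.8 and 36.8 in sham libraries (log2 fold change 0.57 ± 0.14; limma, adjusted p = 0.490). Rnf213, a large ubiquitin ligase gene, had 2.004, 2.58 and 2.20 scaled TPM in OVX libraries, against 0.929, 1.70 and 1.45 in sham libraries (limma, adjusted p = 0.706). Slfn2, Rnf213 and the RNA-editing enzyme gene Adar (log2 fold change 0.18) were higher in all OVX libraries, 3 of the 13 tested, beside 7.42% of all genes. Of 20 other genes of class I processing and loading 17 were tested, with 0 called, 0 at an unadjusted p below 0.05 and a median of -0.06, where Tapbpl, a tapasin-like gene, had -0.33 ± 0.17, the proteasome activator gene Psme1 had -0.28 ± 0.15 and the translocon gene Sec61b had 0.27 ± 0.17. Among the 17, only Tapbpl was lower in all OVX libraries, beside 7.8% of all genes. Only the peptidase gene Lnpep (log2 fold change 0.23) was higher in all of them, beside 7.42% of all genes. Of 18 genes of nucleic acid sensing 12 were tested, with 0 called and a median of 0.03. Unc93b1, which carries Toll-like receptors to endosomes, had 4.07, 4.27 and 3.64 scaled TPM in OVX libraries, against 2.10, 2.41 and 3.04 in sham libraries (log2 fold change 0.51 ± 0.17; limma, adjusted p = 0.673). It was the 1 gene of the 12 with an unadjusted p below 0.05, beside 3.46% of all genes higher. It was also the 1 gene with higher values in all OVX libraries, beside 7.42% of all genes. Of 12 regulators of interferon signalling 7 were tested and of 9 class II partner genes 2, with 0 called and 0 at an unadjusted p below 0.05. Of those 2 partner genes, the lysosomal protease gene Ctss was lower in all OVX libraries (log2 fold change -0.24), beside 7.8% of all genes.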

How the data were processed

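RNA of sorted osteal macrophages was sequenced in 3 OVX and 3 sham libraries made with a directional kit, and the sample titles gave the group and number of each. The authors deposited a table of TPM per transcript and library. The study's methods and the submitters' processing notes name trimming, alignment to mm10 with HISAT2 2.0.5 and counting with featureCounts 1.5.0-p3, and the step to TPM is not described in the sources used here. The table also holds columns of the authors' own comparison (a mean level, a log2 fold change with its error, a statistic and p-values), which were not used. 0 columns of other samples were present.

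TPM were summed over listed transcripts per gene and scaled by an unweighted trimmed mean of M values, trimming 30% of M and 5% of A from either end (factors 0.998, 1.01 and 0.841 for OVX and 1.04, 0.994 and 1.14 for sham replicates 1, 2 and 3). Limma 3.58.1 in R 4.3.3 was fitted on log2(scaled TPM + 1) with group as the only term and an empirical Bayes trend, for genes whose mean reached 1 scaled TPM. An exact permutation test of 3 against 3 libraries cannot go below p = 0.1, so none was used. The procedure was run on simulated data with independent noise for each gene and library, and the outcome is not given here. The simulation held no deviation shared by many genes of 1 library, so it does not describe the test with a library like OVX replicate 3. Coordinates come from GENCODE M21 and promoters from RefSeq (GRCm38.p6). Tables were handled in Python 3.11.15 with pandas 2.3.3.

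The rule for the members reads symbols only, but this gene family, its rule, the lists and the tests were chosen with earlier results of these data known. Named by rule were members with an unadjusted p below 0.05, the 12 most abundant members, the class I path, the interferon signalling path, members with a log2 fold change of at least 0.3 whose sign turned under an alternative, and up to 3 genes of each other list. All other members, and genes of the other lists, were named after their values were seen. The values of 1 untested member are not reported here.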

Additional observations from a re-analysis of the deposited data

How the results depend on the processing

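No member was called under any setting tried, and the number with an unadjusted p below 0.05, 3 as reported, was 5 on TPM as deposited, 7 with equal listed totals, 8 with library weights and 1 to 5 when 1 library was left out. Of all genes, 3.46% higher and 3.42% lower reached that p as reported, 1.55% and 6.05% on TPM as deposited. With equal listed totals, library weights or a block, the share over all genes is not given here. Those member counts therefore cannot be read as a result about the members. Over all genes 1 was called as reported, 0 with a pseudocount of 0.1, 27 with library weights and 0 to 10 when 1 library was left out, the 10 without OVX replicate 3. With the replicate number as a block, 0 genes were called and 1 member had an unadjusted p below 0.05. Neither the labels nor the study's methods state whether the numbers are a pairing. Same-numbered samples did not deviate together (correlations of -0.06, -0.13 and -0.25). Deviations from the means of so few libraries cannot decide whether samples were paired. Members whose groups did not overlap were 9 as reported and 5 with protein-coding transcripts alone, a setting chosen after seeing the data. On TPM as deposited the median of all genes lay at -0.15 and that of the members at -0.35 on the log2 scale.

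Without OVX replicate 3 the log2 fold change changed sign in 12 of 38 members, and with the other libraries left out in 1 to 3. Library weights, which gave OVX replicate 3 a weight of 0.172 against 0.907 to 2.68 for the rest, turned 13: Ifngr1 (0.0213), Isg15 (0.0235), H2-K2 (-0.0328), Irf2 (0.14), H2-DMa (0.17), Ifitm10 (0.00186), H2-T23 (0.13), Ifi204 (-0.0110), Ifi30 (0.20), Stat6 (0.0175), Irf3 (0.20), B2m (-0.0113) and Ifnar2 (0.18). On TPM as deposited Jak1 (-0.0153), B2m (-0.14) and Ifi27 (-0.15) turned, with equal listed totals B2m (-0.0449) and Ifi27 (-0.0584), and with coding transcripts alone Irf3 (0.0821), H2-Ke6 (0.00987) and Ifi27 (-0.21). Leaving out 1 library gave log2 fold changes of -0.0430 to 0.0794 for B2m, -0.55 to 0.0601 for H2-D1, -0.56 to 0.15 for H2-DMa, -0.17 to 0.0931 for H2-Ke6, -0.37 to 0.0932 for H2-T23, -0.0869 to 0.235 for Ifi204, -0.0255 to 0.0607 for Ifi27, -0.34 to 0.16 for Ifi30, -0.30 to 0.0405 for Ifitm10, -0.0905 to 0.0629 for Ifitm2, -0.57 to 0.0508 for Ifnar1, -0.15 to 0.22 for Ifnar2, -0.94 to 0.19 for Irf2, -0.29 to 0.18 for Irf3, -0.28 to 0.83 for Jak2, -0.13 to 0.53 for Stat5b and -0.20 to 0.0648 for Stat6. None of these was called, and the cause of the changes was not tested. Ifngr2, Gbp2 and Tapbp stayed below 0 and Ifitm1 above 0 under every setting in which they were tested.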
